A study of Mus musculus with 72 samples.

Results

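The comparison described here asks how the response of mouse ovarian follicles to FSH21 differed between 10 ng/ml and 1 ng/ml. The comparison is between 12 of the 18 sequenced libraries, and each dose was set against untreated libraries that carried the same library numbers. The model was fitted to all 18 libraries, so the others also entered its estimates. FSH21 at 10 ng/ml (numbers 2, 3 and 4) was set against untreated follicles numbered 2, 3 and 4, and FSH21 at 1 ng/ml (numbers 1, 5 and 6) against untreated follicles numbered 1, 5 and 6. The dose difference of a gene is its log2 change at 10 ng/ml minus its log2 change at 1 ng/ml, with the library number as a block. The study grew early secondary follicles for 24 h without hormone or with FSH21 or FSH24, glycoforms of follicle-stimulating hormone (FSH), each at 1 or 10 ng/ml, and sequenced messenger RNA. Each library was read in 4 sequencing lanes and has 1 column in the deposited table. FSH21 is the form with fewer sugar chains. All libraries shared one medium, α-MEM with GlutaMAX, serum albumin, fetuin and an insulin-transferrin-selenium supplement. The mouse strain, the age of the animals and the number of follicles per library are not given in the labels.

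FSH is a pituitary hormone whose receptor in the follicle sits on granulosa cells, the somatic cells that surround the oocyte. The receptor raises cyclic AMP, and its signal also reaches the PI3K, AKT and ERK pathways. FSH is known for driving granulosa proliferation, estrogen synthesis and the granulosa side of the exchange with the oocyte.

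Library totals lay between 17.5 M and 22.5 M counts with a median of 21.4 M. Granulosa and oocyte markers were present in every library. The summed level of 22 oocyte genes ranged from 6394 to 7211 CPM (counts scaled to the library total) with FSH21 at 10 ng/ml, against 7298 to 7684 CPM in its untreated libraries, and from 6073 to 6651 CPM with 1 ng/ml, against 6011 to 7071 CPM in its untreated libraries. The oocyte share was lower at 10 ng/ml than in its untreated libraries without overlap and overlapped at 1 ng/ml. The 2 untreated sets did not overlap each other either, and the 10 ng/ml range overlapped that of untreated numbers 1, 5 and 6. The part of the oocyte share in the results was not tested. In such whole-follicle RNA, fewer cells of a type and less RNA per cell cannot be told apart. Stromal and smooth muscle markers summed to between 3076 and 5432 CPM over the 12 libraries with overlapping groups, endothelial markers to between 69.4 and 104 CPM, and immune markers to no more than 5.69 CPM. Surface epithelium markers summed to 80.4 to 82.4 CPM with FSH21 at 10 ng/ml, against 37.0 to 50.6 CPM in its untreated libraries, and to 58.8 to 64.6 CPM with 1 ng/ml, against 39.9 to 48.3 CPM in its untreated libraries. Their sum was higher at both doses without overlap. Of the 6 tested, 1 (Krt8, a keratin) was called at each dose, with log2 changes of 0.98 and 0.51. The members did not move together at 10 ng/ml: Krt7, Krt18 and Krt19 were above 0, and Upk3b (−1.12) and Muc16 (−1.20) below, none of them called. The part of these markers in the results was not tested. The 2 sets of untreated libraries, numbers 2, 3 and 4 against 1, 5 and 6, had no gene called between them by edgeR without the block (0 called, 1020 genes at an unadjusted p under 0.05, smallest adjusted p = 0.901). Dose and number set cannot be told apart in the treated libraries. The study's design text describes the libraries of a group as biological replicates, but no animals are named, and a p-value here reflects only how much these libraries varied.

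Far more genes were called at 10 ng/ml than at 1 ng/ml. Of 18727 genes tested, 2819 (15.1%) were called at 10 ng/ml, 1579 higher (8.43%) and 1240 lower (6.62%). By sign alone 2601 of the 2819 had the same direction at 1 ng/ml, where 218 of them were called. At 1 ng/ml 226 genes (1.21%) were called, 148 higher (0.79%) and 78 lower (0.417%). All 218 genes called at both doses had the same direction. The count at 1 ng/ml was 43 without FSH21 library number 1, 50 without untreated number 1 and 41 without untreated number 6. The dose difference itself was called in 229 genes (1.22%), 116 with the 10 ng/ml change the more positive (0.619%) and 113 with it the more negative (0.603%). All 229 were called at 10 ng/ml and changed more there than at 1 ng/ml, and 77 of them were called at 1 ng/ml too. No gene with a called dose difference changed more at 1 ng/ml. Without the replicate block the dose difference was called in 51 genes, the 10 ng/ml effect in 1906 and the 1 ng/ml effect in 24. Leaving out untreated library number 4 left 111 genes with a called dose difference.

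**Figure D1:**
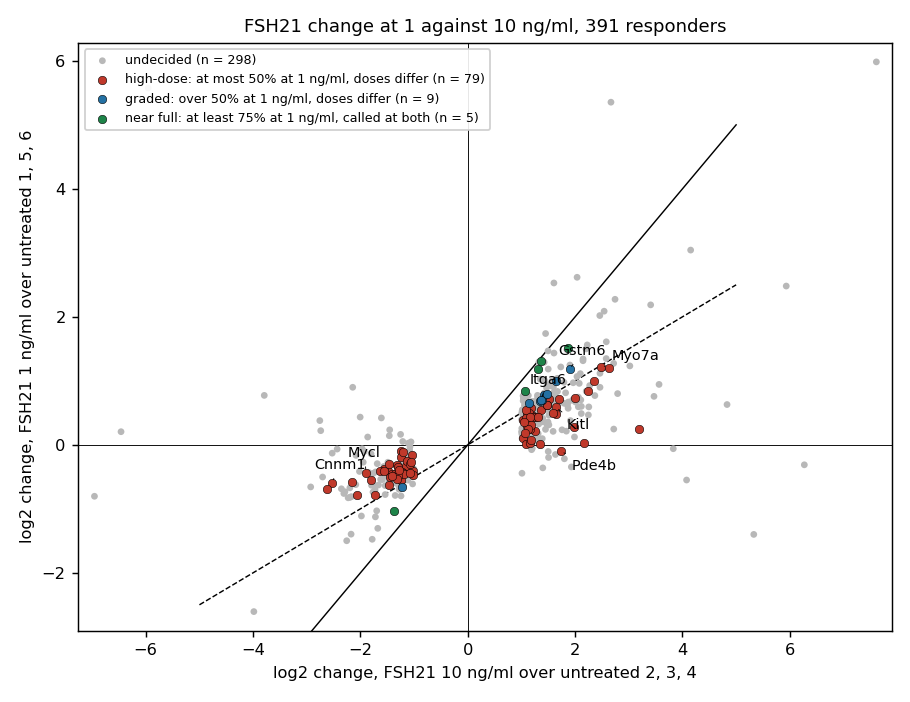
Log2 change of the 391 responders with FSH21 at 10 ng/ml (horizontal) and at 1 ng/ml (vertical), each over its own untreated libraries. The solid line marks equal change and the dashed line a change at 1 ng/ml of 50% of that at 10 ng/ml. The 79 high-dose genes lie on the side of the dashed line with the smaller change at 1 ng/ml, and the 5 near-full genes lie between the lines.

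To sort genes by dose, responders were defined as the 391 genes called at 10 ng/ml with at least a 2-fold change, 258 higher and 133 lower. The log2 change at 1 ng/ml was a median of 36.5% of that at 10 ng/ml, with quartiles of 23.1% and 49.2%. The median was 39.7% among responders that were higher and 30.6% among those that were lower. At 1 ng/ml 362 of the 391 had the same sign, and 85 were called. The share lay between 25% and 50% for 189 responders, between 50% and 75% for 69, between 75% and 100% for 18 and above 100% for 4. It lay between 0% and 25% for 82, and 29 had the opposite sign at 1 ng/ml. Leaving out 1 library at a time moved the median share between 32.6% and 40.1%. Responders were picked by their change at 10 ng/ml, the denominator of the share, so the median depends on that choice. Among the 226 genes called at 1 ng/ml the median share was 55.2%, and among the 218 called at both doses it was 55.0%.

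**Figure D2:**
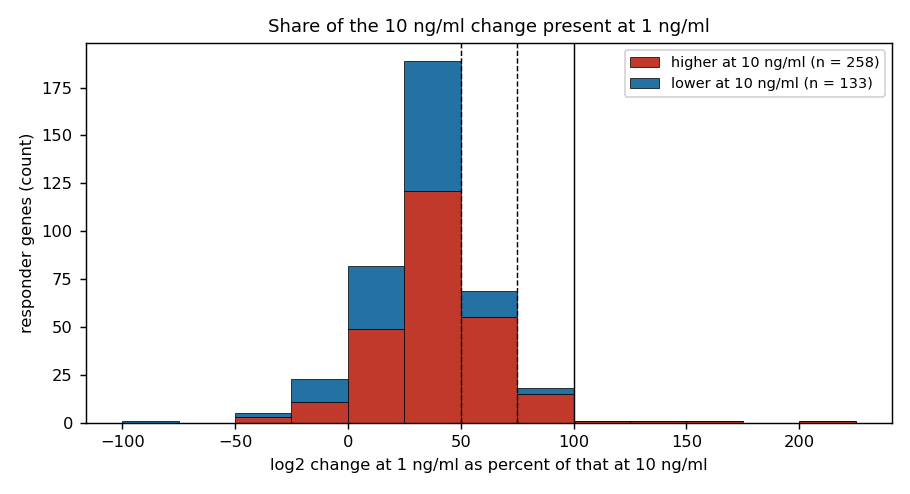
Number of responders by the size of the log2 change at 1 ng/ml as a percent of that at 10 ng/ml, with genes higher at 10 ng/ml in red and genes lower in blue. The dashed lines mark 50% and 75% and the solid line 100%. The tallest bar, from 25% to 50%, holds 189 genes.

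The responders were sorted into 4 groups. A near-full gene was also called at 1 ng/ml, reached at least 75% of the 10 ng/ml change and had no called dose difference, and 5 genes met this. A graded gene had a called dose difference and more than 50% of the change at 1 ng/ml, and 9 genes met this. A high-dose gene had a called dose difference and at most 50% of the change at 1 ng/ml, and 79 genes met this, 41 higher and 38 lower. The remaining 298 were undecided. Their dose difference had a median SE of 0.44 on the log2 scale, against 0.15 among the high-dose genes. The sorting uses the call of the dose difference, which a small SE favors, so this gap is partly built in. Entpd1, at 49.3%, and Aldh3b1, at 50.6%, stood on either side of the limit between high-dose and graded genes. A direct test of whether the change at 1 ng/ml differed from 50% of the change at 10 ng/ml called 0 genes with edgeR, where 703 had an unadjusted p under 0.05 and the smallest adjusted p was 0.244. DESeq2 called 13.

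The 5 near-full genes had low levels in CPM. A gene had to be called at both doses to enter this group, so its size depends on the precision at 1 ng/ml. Myl6b, a myosin light chain gene (chromosome 10, 128494157 to 128498685, minus strand, GRCm38), was the only one above 5 CPM. It had 9.82, 6.98 and 9.96 CPM with FSH21 at 10 ng/ml, against 5.19, 2.93 and 4.79 CPM in untreated follicles, and 6.67, 7.56 and 5.39 CPM with 1 ng/ml, against 3.31, 3.93 and 3.69 CPM in untreated follicles. The groups did not overlap at either dose. The log2 change was 1.06 at 10 ng/ml (SE 0.17, adjusted p = 0.000237) and 0.84 at 1 ng/ml (SE 0.17, adjusted p = 0.0203), which is 79.2% of it. The dose difference was 0.22 with a 95% interval of −0.29 to 0.73, so a further step of 0.73 at the higher dose lies inside it.

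The other 4 near-full genes averaged less than 5 CPM in all 4 groups and were named after their values were seen. Filip1, an actin-binding filamin interactor, reached 96.0% of its 10 ng/ml change at 1 ng/ml (log2 1.31 against 1.37). Gbp9, a guanylate-binding protein gene, reached 90.9%. Rps23rg1, a retrogene of the ribosomal protein gene Rps23 that can share reads with it, reached 81.1%. Lnx1, a ubiquitin ligase gene, was the only one that fell, with −1.37 at 10 ng/ml and −1.04 at 1 ng/ml, which is 75.8%. These shares are imprecise. Across the 5 near-full genes the dose difference had a median SE of 0.38 on the log2 scale. Its 95% interval reached a median of 0.81 to either side, beside a median absolute change of 1.37 at 10 ng/ml. None of the 5 kept the near-full group in every fit that left out 1 library, and all 5 lost it without the replicate block, where their adjusted p at 1 ng/ml ranged from 0.108 for Filip1 to 0.309 for Lnx1.

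Every graded gene was called at both doses, and 0 of the 9 kept the called dose difference without the block. Its members were Itga6, Gstm2, Gstm6, Gstm7, Scube1, Gask1b, Aldh3b1 and Dsc2, which rose, and Col9a2, which fell. Their change at 1 ng/ml was between 50.6% and 62.2% of that at 10 ng/ml. Itga6, which encodes the integrin α6 subunit that binds laminin of the basement membrane (chromosome 2, 71745616 to 71858416, plus strand), had 1871, 1699 and 1751 CPM with FSH21 at 10 ng/ml, against 758, 632 and 686 CPM in untreated follicles. It had 1338, 1098 and 982 CPM with 1 ng/ml, against 734, 749 and 608 CPM in untreated follicles. All 6 treated libraries were above all 6 untreated ones, and the 10 ng/ml libraries above the 1 ng/ml libraries. The log2 change was 1.36 at 10 ng/ml (SE 0.07) and 0.70 at 1 ng/ml (SE 0.07, adjusted p = 6.16e-05), and the dose difference 0.66 (SE 0.09, adjusted p = 0.00129). Without the replicate block the 1 ng/ml change was still called (adjusted p = 0.0163) and the dose difference was not (adjusted p = 0.0758).

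Most Mu-class glutathione transferases, which couple glutathione to electrophiles, rose at both doses. Of the 6 tested, 5 rose at 10 ng/ml (8.43% of all genes), 4 rose at 1 ng/ml (0.79%) and 3 had a called dose difference upward (0.619%). The median log2 changes were 0.99 at 10 ng/ml and 0.54 at 1 ng/ml. Gstm2 had 889, 754 and 792 CPM with FSH21 at 10 ng/ml, against 423, 326 and 361 CPM in untreated follicles. At 1 ng/ml its values were 600, 545 and 492 CPM, against 371, 390 and 286 CPM in untreated follicles. The treated and untreated groups did not overlap at either dose, and each number's treated library was above its untreated one. Gstm6 reached 62.2% of its 10 ng/ml change at 1 ng/ml (log2 1.18, SE 0.10, against 1.90, SE 0.10). The genes of this family are close paralogs that can share reads, so the split between members is uncertain. None of the 3 kept the dose difference without the block, where the adjusted p was 0.55 for Gstm2, 0.605 for Gstm6 and 0.617 for Gstm7.

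Scube1, a secreted and cell surface EGF-repeat protein, averaged 130 ± 11.4 CPM with FSH21 at 10 ng/ml and 48.5 ± 1.37 CPM in its untreated libraries, and 85.3 ± 15.6 CPM with 1 ng/ml and 49.1 ± 4.65 CPM in its untreated libraries (SD, n = 3 each). Dsc2, the desmosomal cadherin desmocollin 2, reached 51.1% of its change at 1 ng/ml. Its dose difference (0.68, adjusted p = 0.0265) was lost without the block (adjusted p = 0.289) and in 10 of the 12 fits that left out 1 library. Col9a2, a collagen IX chain, averaged 52.2 ± 20.3 and 119 ± 35.5 CPM at 10 ng/ml and in its untreated libraries, and 94.3 ± 24.8 and 148 ± 25.4 CPM at 1 ng/ml and in its untreated libraries (SD, n = 3 each). Within each dose the same number was lowest with and without FSH21, number 2 at 10 ng/ml and number 1 at 1 ng/ml, and without the block neither dose was called (adjusted p = 0.0508 at 10 ng/ml and 0.769 at 1 ng/ml).

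**Figure D3:**
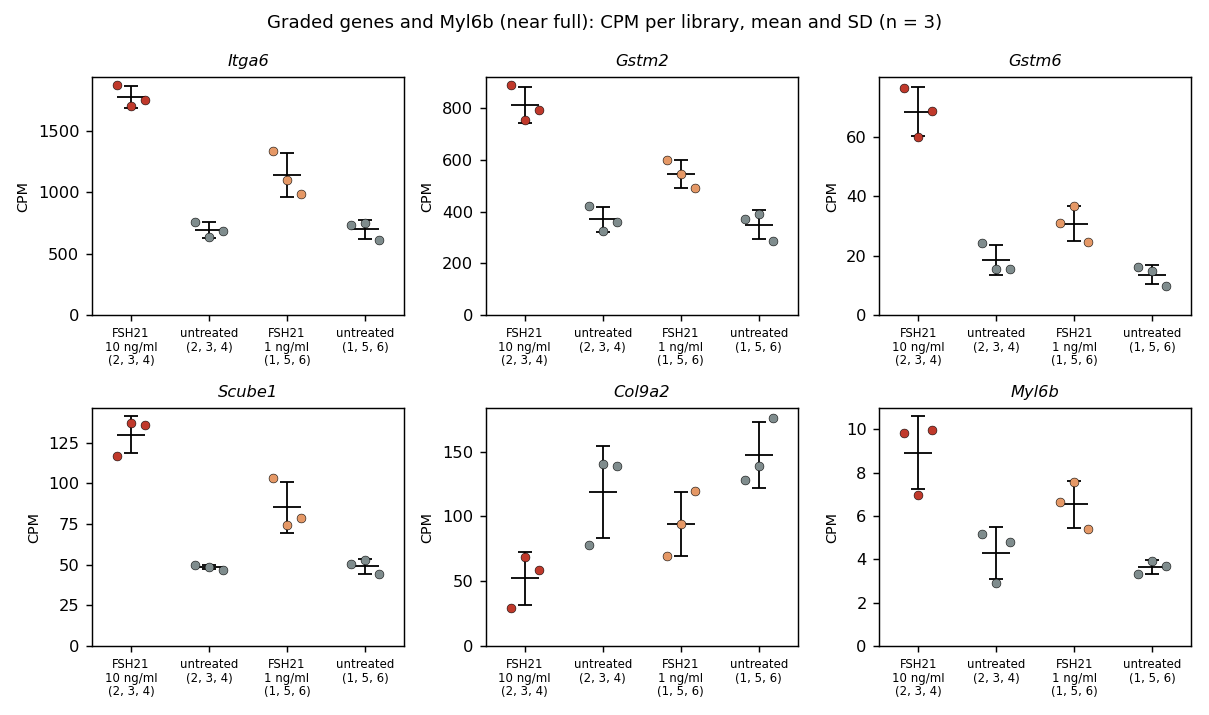
Level in CPM of 5 graded genes and of Myl6b in each library (points), with mean and SD of 3 libraries, for FSH21 at 10 ng/ml and its untreated libraries and for FSH21 at 1 ng/ml and its untreated libraries. Library numbers stand in brackets and points run in that order. The 1 ng/ml libraries of Itga6, at 982 to 1338 CPM, lie between the untreated and the 10 ng/ml libraries.

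The smallest adjusted p of any dose difference belonged to Kitl, whose protein is made by granulosa cells and binds KIT on the oocyte (chromosome 10, 100015630 to 100100416, plus strand). Kitl had 383, 427 and 457 CPM with FSH21 at 10 ng/ml, against 121, 144 and 141 CPM in untreated follicles. With 1 ng/ml it had 233, 250 and 228 CPM, against 157, 155 and 160 CPM in untreated follicles. Untreated, 1 ng/ml and 10 ng/ml libraries did not overlap. The 2 untreated sets did not overlap each other either, with numbers 2, 3 and 4 the lower, and this gap enters the dose difference. The log2 change was 1.64 at 10 ng/ml (SE 0.06, adjusted p = 1.90e-11) and 0.59 at 1 ng/ml (SE 0.06, adjusted p = 7.01e-05), which is 35.9% of it. The dose difference of 1.05 (SE 0.08, adjusted p = 5.86e-06) was called in every fit that left out 1 library and without the replicate block (adjusted p = 0.000165).

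The high-dose group did not consist of genes that were silent at 1 ng/ml. Of its 79 members, 78 had the same sign at 1 ng/ml and 46 were called there, and the median share was 33.6%. Of the 41 that rose, 21 were called at 1 ng/ml, and of the 38 that fell, 25 were. Without the block 25 of the 79 kept a called dose difference, 8 that rose and 17 that fell. The group kept 39 of its 79 members in every fit that left out 1 library.

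A few rises were seen at 10 ng/ml alone. Pde4b, a phosphodiesterase that breaks down cyclic AMP, had 5.02, 5.19 and 5.36 CPM with FSH21 at 10 ng/ml, against 1.68, 1.28 and 1.72 CPM in untreated follicles. The 1 ng/ml libraries gave 1.86, 1.59 and 1.23 CPM, against 2.30, 1.36 and 1.41 CPM in untreated follicles. The 10 ng/ml libraries stood apart from the other 9, which overlapped. Its log2 change was 1.73 at 10 ng/ml (SE 0.25) and −0.10 at 1 ng/ml (SE 0.26), with a dose difference of 1.83 (SE 0.36, adjusted p = 0.014), which was lost without the block (adjusted p = 0.0633) and in 4 of the 12 fits that left out a library. Mpp2, a membrane scaffold protein, had 11.9, 15.6 and 13.7 CPM with FSH21 at 10 ng/ml, against 6.60, 5.18 and 4.52 CPM in untreated follicles, and 7.12, 5.48 and 4.46 CPM with 1 ng/ml, against 5.71, 5.34 and 5.75 CPM in untreated follicles. Again the 10 ng/ml libraries alone stood apart, with a dose difference of 1.33 (SE 0.23, adjusted p = 0.00642) that was kept without the block (adjusted p = 0.0314). Pappa, a secreted protease that cleaves IGF-binding proteins, averaged 6.91 ± 2.10 and 1.73 ± 0.297 CPM at 10 ng/ml and in its untreated libraries, and 2.66 ± 0.883 and 2.14 ± 0.506 CPM at 1 ng/ml and in its untreated libraries (SD, n = 3 each). Its dose difference of 1.70 (SE 0.34, adjusted p = 0.0165) was lost without the block (adjusted p = 0.183).

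Other high-dose genes with large rises had clear low-dose changes as well. Myo7a, an unconventional myosin found in actin-rich protrusions, had 21.9, 20.98 and 23.4 CPM with FSH21 at 10 ng/ml, against 4.02, 3.94 and 3.89 CPM in untreated follicles. With 1 ng/ml it had 11.1, 9.83 and 6.52 CPM, against 4.08, 4.08 and 3.51 CPM in untreated follicles. The 3 levels did not overlap. The change at 1 ng/ml (1.21, SE 0.13, adjusted p = 0.00018) was 48.8% of that at 10 ng/ml (2.48, SE 0.13), and the dose difference was 1.27 (SE 0.19, adjusted p = 0.00171; 0.0523 without the block). Ifitm1, an interferon-induced membrane protein whose family members can share reads, reached 45.3% of its change, and Flrt1, a leucine-rich adhesion protein, 42.5%. Their dose differences were 1.44 (SE 0.27, adjusted p = 0.0103) and 1.36 (SE 0.29, adjusted p = 0.0394), and neither was called without the block (adjusted p = 0.0523 for Ifitm1 and 0.545 for Flrt1).

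Dose steps were large among the falls of the high-dose group too. Cnnm1, which encodes a cyclin M membrane protein (chromosome 19, 43440436 to 43497210, plus strand), had 3.96, 5.42 and 4.79 CPM with FSH21 at 10 ng/ml, against 27.8, 24.7 and 29.1 CPM in untreated follicles. Follicles given 1 ng/ml had 18.4, 13.1 and 18.1 CPM, against 27.1, 24.1 and 23.5 CPM in untreated follicles. The 1 ng/ml libraries lay between the others without overlap, nearer to the untreated ones. The log2 change was −2.53 (SE 0.15) at 10 ng/ml and −0.60 (SE 0.13, adjusted p = 0.0364) at 1 ng/ml, and the dose difference −1.93 (SE 0.20, adjusted p = 0.0001; 0.000224 without the block).

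Mycl, a MYC-family transcription factor, had 33.9, 40.9 and 50.0 CPM with FSH21 at 10 ng/ml, against 155, 137 and 170 CPM in untreated follicles. With 1 ng/ml it had 128, 105 and 109 CPM, against 183, 141 and 141 CPM in untreated follicles, a change that was not called (−0.44, SE 0.14, adjusted p = 0.255). Its dose difference was −1.46 (SE 0.21, adjusted p = 0.00938). Its relative Myc fell at both doses, by 1.24 and 0.54 on the log2 scale, which gave a share of 43.8% and a dose difference of −0.70 (SE 0.12, adjusted p = 0.00884). Both kept the dose difference without the block (adjusted p = 0.0124 for Mycl and 0.0278 for Myc).

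Pik3r1, which encodes the p85α regulatory subunit of PI3K, had 393, 346 and 355 CPM with FSH21 at 10 ng/ml, against 869, 908 and 919 CPM in untreated follicles. Under 1 ng/ml the values were 679.8, 744 and 793 CPM, against 815, 1004 and 1006 CPM in untreated follicles. Every 10 ng/ml library was below every 1 ng/ml library, and those were below every untreated one. The share was 26.5%, and the dose difference −0.96 (SE 0.09, adjusted p = 3.72e-05; 0.00211 without the block). Like steps were measured for Ank3, an ankyrin that ties membrane proteins to spectrin (−0.93, SE 0.08, adjusted p = 3.39e-05), for Me3, a mitochondrial malic enzyme (−1.18, SE 0.12, adjusted p = 8.06e-05), and for Rassf2, a RAS-association domain protein (−1.004, SE 0.11, adjusted p = 0.000101), all of them called without the block too. These 4 genes were named after their values were seen.

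Mug2, a protease inhibitor of the α-macroglobulin family, averaged 3.40 ± 1.01 and 20.9 ± 6.07 CPM at 10 ng/ml and in its untreated libraries, and 15.4 ± 4.24 and 24.9 ± 6.33 CPM at 1 ng/ml and in its untreated libraries (SD, n = 3 each). Its share was 26.6%. Sgpp2, a sphingosine-1-phosphate phosphatase, reached 37.8% and Sel1l3 30.5%, with dose differences of −1.28 (SE 0.18, adjusted p = 0.000953) and −1.25 (SE 0.17, adjusted p = 0.00405). Tuba8, an α-tubulin, had a dose difference of −1.59 (SE 0.33, adjusted p = 0.0209) that was lost in 8 of the 12 fits without 1 library. Without the block the dose difference of Mug2 (adjusted p = 0.0394) and Sgpp2 (0.0127) was kept, and that of Sel1l3 (0.0966) and Tuba8 (0.544) was not.

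**Figure D4:**
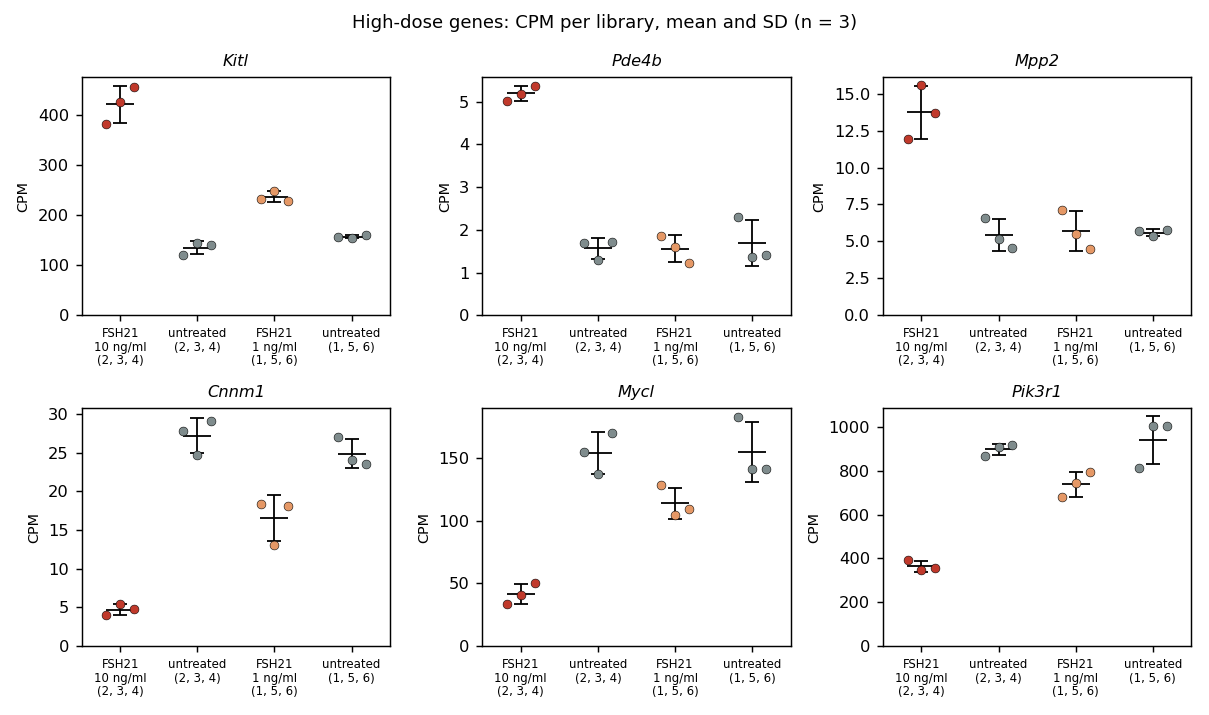
Level in CPM of 6 high-dose genes in each library (points), with mean and SD of 3 libraries, for FSH21 at 10 ng/ml and its untreated libraries and for FSH21 at 1 ng/ml and its untreated libraries. Library numbers stand in brackets. Kitl, Cnnm1, Mycl and Pik3r1 at 1 ng/ml lie between the untreated and the 10 ng/ml means, and Pde4b and Mpp2 at 1 ng/ml overlap their untreated libraries.

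Promoters of the high-dose genes were searched for short motifs, since cyclic AMP acts on genes through CREB at the element TGACGTCA. RefSeq promoter windows (build GRCm38.p6, 250 bases before to 50 after a start) were found for 51 of the 79 high-dose genes and 12619 of 18429 tested symbols. On either strand TGACGTCA stood in 3.92% of the high-dose promoters and 3.24% of all. Its core TGACG, which that element also contains, stood in 25.5% and 32.5%, the nuclear receptor motif AAGGTCA in 5.88% and 4.18%, and the forkhead motif GTAAACA in 7.84% and 3.04%. The sterol response motif TCACNCCAC stood in 3.92% and 1.45%. Of the 4 near-full genes with a window, 2 held TGACG and none held the others. Of 16 cholesterol synthesis genes with a window, 1 held the sterol motif. The windows below are those of Pde4b and Cnnm1, which had the largest positive and negative dose differences among the named high-dose genes, with TGACG or its complement in capitals, of Mlf1, a high-dose gene that fell and held the full TGACGTCA, in capitals, and of Hmgcs1 with its sterol motif in capitals. They lie at chr4:102421305-102421604 for Pde4b, 1 of its 4 windows, chr19:43440163-43440462 for Cnnm1, chr3:67373847-67374146 for Mlf1 and chr13:119690101-119690400 for Hmgcs1, all on the plus strand and written 5′ to 3′.
Pde4b: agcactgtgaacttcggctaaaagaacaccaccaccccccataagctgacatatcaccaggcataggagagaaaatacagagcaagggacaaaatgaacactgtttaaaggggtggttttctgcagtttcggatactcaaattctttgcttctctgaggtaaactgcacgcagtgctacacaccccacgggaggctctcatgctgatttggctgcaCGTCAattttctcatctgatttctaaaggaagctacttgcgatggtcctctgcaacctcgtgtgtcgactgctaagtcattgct
Cnnm1: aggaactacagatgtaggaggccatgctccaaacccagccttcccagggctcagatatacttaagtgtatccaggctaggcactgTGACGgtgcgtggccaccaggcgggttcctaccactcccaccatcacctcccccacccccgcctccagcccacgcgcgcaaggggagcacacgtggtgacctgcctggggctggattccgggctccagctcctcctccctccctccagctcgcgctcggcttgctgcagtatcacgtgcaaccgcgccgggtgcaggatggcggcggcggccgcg
Mlf1: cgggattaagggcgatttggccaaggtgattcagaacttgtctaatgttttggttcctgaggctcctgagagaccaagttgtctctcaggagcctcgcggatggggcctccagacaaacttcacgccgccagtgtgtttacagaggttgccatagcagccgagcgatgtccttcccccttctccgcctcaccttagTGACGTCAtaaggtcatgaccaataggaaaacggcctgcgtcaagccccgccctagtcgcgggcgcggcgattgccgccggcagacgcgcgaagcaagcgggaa
Hmgcs1: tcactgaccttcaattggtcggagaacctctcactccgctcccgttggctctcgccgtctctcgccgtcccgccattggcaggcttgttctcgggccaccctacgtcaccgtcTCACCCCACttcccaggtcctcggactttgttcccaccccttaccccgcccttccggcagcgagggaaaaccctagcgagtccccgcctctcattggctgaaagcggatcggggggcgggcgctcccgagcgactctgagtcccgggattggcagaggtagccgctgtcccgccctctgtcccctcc

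Cholesterol synthesis genes rose together at 10 ng/ml, and 10 of them had a called dose step. Of the 23 genes, 21 rose at 10 ng/ml (8.43% of all genes tested) and 2 rose at 1 ng/ml (0.79%). The 10 called dose differences were all upward, a direction called in 0.619% of all genes tested. The median log2 change was 0.66 at 10 ng/ml and 0.21 at 1 ng/ml. All 23 dose differences were above 0. Lss, lanosterol synthase, had 80.7, 96.1 and 88.9 CPM with FSH21 at 10 ng/ml, against 54.1, 47.4 and 45.3 CPM in untreated follicles, and 59.99, 61.2 and 60.5 CPM with 1 ng/ml, against 51.7, 49.9 and 51.5 CPM in untreated follicles. The 3 levels did not overlap, although the 1 ng/ml change was not called (adjusted p = 0.163). The share was 29.0%, with a dose difference of 0.61 (SE 0.11, adjusted p = 0.00844; 0.0307 without the block). Hmgcs1, the HMG-CoA synthase of the cytosol whose promoter is printed above, had a share of 32.7% and a dose difference of 0.41 (SE 0.08, adjusted p = 0.0142; 0.139 without the block). Without the block 3 of the 10 were called.

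Most ribosomal protein genes fell at 10 ng/ml, and few were called at 1 ng/ml. Of 87 tested, 68 fell at 10 ng/ml (6.62% of all genes) and 3 fell at 1 ng/ml (0.417%). The dose difference was called in 1, Rpl10a (1.22% of all genes), and was lost without the block (adjusted p = 0.304). The median log2 change was −0.54 at 10 ng/ml and −0.22 at 1 ng/ml. Their summed level was 16616 to 19613 CPM with FSH21 at 10 ng/ml, against 24672 to 27647 CPM in untreated follicles, and 20178 to 23092 CPM with 1 ng/ml, against 24405 to 28284 CPM in untreated follicles. Neither dose overlapped its untreated libraries, and the doses did not overlap each other. Members of this list share reads with their pseudogenes. Of 19 ribosome biogenesis genes, 15 fell at 10 ng/ml (6.62% of all genes) and 1, Myc, at 1 ng/ml (0.417%). Polr1a, the large subunit of RNA polymerase I, averaged 237 ± 8.34 and 385 ± 49.1 CPM at 10 ng/ml and in its untreated libraries, and 367 ± 27.0 and 406 ± 42.5 CPM at 1 ng/ml and in its untreated libraries (SD, n = 3 each). Its dose difference was −0.55 (SE 0.09, adjusted p = 0.00306; 0.0971 without the block).

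**Figure D5:**
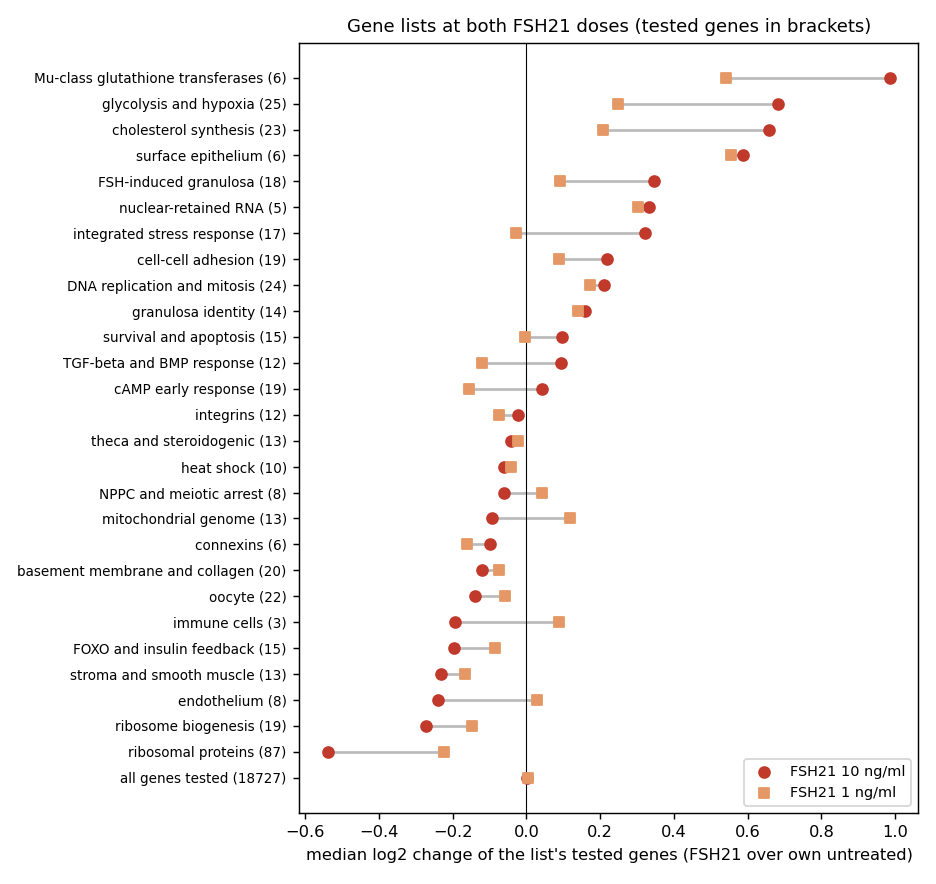
Median log2 change of each gene list with FSH21 at 10 ng/ml (circles) and at 1 ng/ml (squares), each over its own untreated libraries, with the number of tested genes in brackets. Cholesterol synthesis lies at 0.66 and 0.21, ribosomal proteins at −0.54 and −0.22, and all genes tested near 0 at both doses.

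Of 24 genes of DNA replication and mitosis, 13 rose and 1 fell at 10 ng/ml (8.43% and 6.62% of all genes) and 4 rose at 1 ng/ml (0.79%), with medians of 0.21 and 0.17. The dose difference was called in 0 of the 24, beside 1.22% of all genes tested, a share at which 0 of 24 is not unusual. Plk1, a mitotic kinase, changed by 0.32 at 10 ng/ml and 0.29 at 1 ng/ml. Ccnb2, cyclin B2, changed by 0.62 and 0.40, a share of 64.6%. The dose difference of Ccnb2 was 0.22 with a 95% interval of 0.02 to 0.42, and Top2a, topoisomerase II, had 0.28 with an interval of 0.09 to 0.47. These changes stayed below the 2-fold limit of a responder. Ccnd2, cyclin D2, was called at neither dose.

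Of the 14 granulosa identity genes, 6 rose and 4 fell at 10 ng/ml (8.43% and 6.62% of all genes). At 1 ng/ml 3 (Kitl, Gata4 and Foxl2) rose, beside 0.79% of all genes. Gata4 and Foxl2, transcription factors of granulosa cells, were called at both doses with shares of 54.9% and 58.1%, and their dose differences were not called (adjusted p = 0.213 for Gata4 and 0.402 for Foxl2). Esr2, the estrogen receptor of granulosa cells, averaged 120 ± 9.20 and 194 ± 18.1 CPM at 10 ng/ml and in its untreated libraries, and 193 ± 8.87 and 203 ± 6.77 CPM at 1 ng/ml and in its untreated libraries (SD, n = 3 each). Its share was 10.6%, with a dose difference of −0.61 (SE 0.07, adjusted p = 0.000112; 0.0124 without the block). Igf1, the growth factor, had a share of 20.2% and a dose difference of −0.70 (SE 0.10, adjusted p = 0.00137; 0.0155 without the block). In this list 1 gene (Kitl) had a called dose difference upward and 4 (Esr2, Igf1, Fshr and Bmpr1b) downward (0.619% and 0.603% of all genes). The other transcription factors Gata6 (adjusted p = 0.0843), Nr5a1 (0.264) and Wt1 (0.997) were not called at 1 ng/ml.

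Fshr, the receptor of the hormone itself, had 12.3, 19.9 and 17.6 CPM with FSH21 at 10 ng/ml, against 21.4, 24.6 and 28.8 CPM in untreated follicles. With 1 ng/ml it had 24.4, 34.7 and 21.6 CPM, against 25.9, 31.1 and 18.4 CPM in untreated follicles. It fell at 10 ng/ml (−0.60, SE 0.10, adjusted p = 0.000428) and was not called at 1 ng/ml (0.10, SE 0.10, adjusted p = 0.811), with a dose difference of −0.70 (SE 0.14, adjusted p = 0.0168). Without the block neither the fall (adjusted p = 0.198) nor the dose difference (0.781) was called.

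Star, Cyp19a1, Lhcgr and Inhbb rose at 10 ng/ml and were not called at 1 ng/ml. None had a called dose difference in the main edgeR fit of all 18 libraries with the block. The rise of Lhcgr at 10 ng/ml was lost without the block (adjusted p = 0.288). Star, which carries cholesterol into mitochondria, had 20.4, 27.1 and 20.6 CPM with FSH21 at 10 ng/ml, against 7.53, 6.74 and 9.68 CPM in untreated follicles. At 1 ng/ml its values were 11.4, 8.56 and 10.4 CPM, against 9.69, 6.56 and 8.21 CPM in untreated follicles. The 10 ng/ml libraries stood apart and the 1 ng/ml libraries overlapped the untreated ones, and the dose difference of 1.16 (SE 0.28, adjusted p = 0.0716) missed the threshold. It was called with the 12 FSH21 and untreated libraries alone (adjusted p = 0.00938) and with DESeq2 (adjusted p = 0.00412), and not without the block (adjusted p = 0.24). Cyp19a1, aromatase, had a dose difference of 1.03 with a 95% interval of −0.06 to 2.13. Lhcgr, the luteinizing hormone receptor, had 1.76 with an interval of 0.57 to 2.95 and an adjusted p of 0.193. In library number 1 Lhcgr was at 4.49 CPM with FSH21 and 7.15 CPM untreated, and Cyp11a1, the side-chain cleavage enzyme, at 7.76 and 9.21 CPM, against at most 3.09 CPM for either gene in numbers 5 and 6. Inhbb, the activin βB subunit, had 445, 766 and 907 CPM with FSH21 at 10 ng/ml, against 222, 132 and 184 CPM in untreated follicles. It had 695, 265 and 210 CPM with 1 ng/ml, against 195, 151 and 102 CPM in untreated follicles, the highest in number 1. Its dose difference of 0.66 had an interval of −0.72 to 2.03.

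Of the 18 FSH-induced granulosa genes tested, 8 rose and 3 fell at 10 ng/ml (8.43% and 6.62% of all genes) and 1 rose at 1 ng/ml (0.79%). The dose difference was called upward in 2, Greb1 and Scarb1 (0.619% of all genes), and downward in 1, Fshr (0.603%). Greb1, an estrogen-regulated gene, averaged 694 ± 66.9 and 298 ± 28.2 CPM at 10 ng/ml and in its untreated libraries, and 444 ± 94.9 and 322 ± 7.33 CPM at 1 ng/ml and in its untreated libraries (SD, n = 3 each). Scarb1, the high-density lipoprotein receptor, had a share of 24.2%. Neither was called without the block (adjusted p = 0.211 for Greb1 and 0.17 for Scarb1). Among 19 early genes of the cyclic AMP response, 7 rose and 1 fell at 10 ng/ml (8.43% and 6.62% of all genes). At 1 ng/ml 0 were called, beside 1.21% of all genes, a share at which 0 of 19 is not unusual. Only Pde4b had a called dose difference, upward as in 0.619% of all genes. Jun, an AP-1 subunit, had a log2 change of 0.97 at 10 ng/ml and 0.02 at 1 ng/ml (dose difference 0.95, SE 0.24, adjusted p = 0.112).

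Of 17 genes of the amino acid and stress response, 6 rose at 10 ng/ml, beside 8.43% of all genes tested. At 1 ng/ml 0 were called, beside 1.21% of all genes, a share at which 0 of 17 is not unusual. Sesn2 and Slc7a5 had a called dose difference, upward as in 0.619% of all genes. Sesn2, the leucine sensor sestrin 2, had 44.4, 46.2 and 41.0 CPM with FSH21 at 10 ng/ml, against 26.9, 27.3 and 28.1 CPM in untreated follicles. With 1 ng/ml it had 30.9, 29.4 and 26.0 CPM, against 30.2, 32.5 and 27.4 CPM in untreated follicles. The 10 ng/ml libraries alone stood apart, with a dose difference of 0.74 (SE 0.10, adjusted p = 0.000953; 0.0238 without the block). Slc7a5, a transporter of large neutral amino acids, had 0.44 (SE 0.09, adjusted p = 0.0161; 0.475 without the block).

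Of 12 integrin genes, 2 rose and 3 fell at 10 ng/ml (8.43% and 6.62% of all genes) and 1 rose at 1 ng/ml (0.79%). The dose difference was called in 3, beside 1.22% of all genes, and in 0 without the block. Itga6 was graded, while Itgav, the αV subunit, averaged 228 ± 21.6 and 377 ± 39.3 CPM at 10 ng/ml and in its untreated libraries, and 392.4 ± 38.6 and 435 ± 33.9 CPM at 1 ng/ml and in its untreated libraries (SD, n = 3 each), a share of 20.6%. Its dose difference was −0.57 (SE 0.09, adjusted p = 0.00254; 0.268 without the block). Of 19 cell-cell adhesion genes, 9 rose and 2 fell at 10 ng/ml (8.43% and 6.62% of all genes). Dsc2 alone rose at 1 ng/ml (0.79%) and had a called dose difference, upward (0.619%). Gja1, the granulosa connexin, and Gja4, the oocyte connexin, were called at neither dose. Of the 6 connexins tested 0 had a called dose difference, which is not unusual beside 1.22% of all genes. Of the 22 oocyte genes, 6 fell at 10 ng/ml, against 6.62% of all genes, and 0 fell there without the block. At 1 ng/ml and for the dose difference 0 of the 22 were called, beside 1.21% and 1.22% of all genes, shares at which 0 of 22 is not unusual. Gdf9 and Bmp15, oocyte growth factors, were called at neither dose.

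FSH24, the more fully glycosylated form, shares the untreated libraries with FSH21, so values are given side by side only. Kitl changed by 1.64 and 0.59 with FSH21 at 10 and 1 ng/ml and by 1.53 and 0.03 with FSH24. Itga6 changed by 1.36 and 0.70 with FSH21 and by 1.32 and 0.09 with FSH24, and Gstm6 by 1.90 and 1.18 and by 1.77 and 0.33. Cnnm1 changed by −2.53 and −0.60 with FSH21 and by −1.99 and −0.03 with FSH24. With FSH24 at 1 ng/ml 0 genes were called by edgeR (1802 at an unadjusted p under 0.05, smallest adjusted p = 0.0616), and the dose difference was called in 1180 genes. The difference between the dose differences of the glycoforms, tested gene by gene, was called in 0 genes (1917 at an unadjusted p under 0.05, smallest adjusted p = 0.127), so the steps of FSH21 and FSH24 were not shown to differ in any gene.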

How the data were processed

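Messenger RNA of cultured mouse follicles was sequenced in 18 libraries of 4 lanes each. The deposited table holds expected counts per gene, which its column names credit to RSEM. Per the submitters' processing notes, bcl2fastq, FastQC, STAR 2.7 and the mm10 build were used. The RSEM version, the annotation and the strand setting are not given in the sources used here. Fractions appeared in 33.9% of values above 0, and every value was rounded to a whole number. Gene positions were taken from GENCODE M21 and promoter sequences from RefSeq.

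Library totals were 17.5 M to 22.5 M, and this depth limits the precision of low genes. Genes were filtered with filterByExpr at a minimum count of 10, which left 18727, scaled by TMM and tested with edgeR 4.0.16 in R 4.3.3 by its quasi-likelihood test with Benjamini-Hochberg adjustment over all genes tested, called at an adjusted p under 0.05. One fit held all 18 libraries, the library number as a block and 1 term per treatment. DESeq2 1.42.0, other scalings, other filters, no block and leaving out each library were alternatives. The fit was tested on simulated data with known changes, 50 genes per setting. Of those given the same log2 change at both doses, 15 were sorted as near-full at a change of 1 and 45 at a change of 2. Of those changed at 10 ng/ml alone, 10 were sorted as high-dose at a log2 change of 1 and 45 at 2. Many changes near the 2-fold limit of a responder were thus not placed in these groups.

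The genes named were up to 6 per direction of the near-full and high-dose groups with at least 5 CPM, by size of change, a set of follicle genes, and up to 3 members of each list by the adjusted p of the dose difference. Genes outside this rule, among them Scube1, Col9a2, Gask1b, Aldh3b1, Entpd1, Mlf1 and Hmgcs1, were chosen after their values were seen. The members and lists were chosen with earlier results of these data known. Some genes that this rule names are not reported here.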

Additional observations from a re-analysis of the deposited data

Results flagged for a closer look

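The response to FSH21 differed between the doses, by a test of the difference itself, in 229 genes. Among the named genes the log2 change at 10 ng/ml exceeded that at 1 ng/ml by 1.83 for Pde4b, 1.70 for Pappa, 1.44 for Ifitm1, 1.36 for Flrt1, 1.33 for Mpp2, 1.27 for Myo7a and 1.05 for Kitl. The difference was −1.93 for Cnnm1, −1.92 for Mug2, −1.59 for Tuba8, −1.46 for Mycl, −1.28 for Sgpp2, −1.25 for Sel1l3 and −0.70 for Fshr.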

How the results depend on the processing

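Without the replicate block the dose difference was called in 51 genes and the 1 ng/ml effect in 24, and the near-full group held 0 and the high-dose group 27 genes. Same-numbered FSH21 and untreated libraries deviated together with correlations of 0.0654 to 0.206, over 0.1 in 5 of 6 pairs, and each FSH21 library correlated best with its own number in 6 of 6. Deviations were taken from the mean of each group of 3 libraries, so a positive own value lowers the others of its set. The 6 matches are therefore not independent and add little to the correlations. FSH24 libraries, which the block also covers, correlated with same-numbered untreated ones at 0.0496 to 0.223 and with FSH21 at 0.0719 to 0.235. Only numbers 1, 2 and 5 had all their pairs over 0.1. These values hint at pairing for some numbers, but 1 FSH21 pair was under 0.1 and no label says what a number marks. The block was used because the comparison is defined with it. With the 12 FSH21 and untreated libraries alone the dose difference was called in 370 genes, and with DESeq2 in 353, where 8 genes were near-full and 13 differed from 50%. With no filter on low counts the calls were 834 for the dose difference, 807 at 1 ng/ml, 31 near-full, 223 high-dose and 133 different from 50%. With edgeR's bias-adjusted deviances on the unfiltered table, chosen after seeing the data, the dose difference was called in 224 and 1 gene differed from 50%. Comparing the 10 and 1 ng/ml libraries directly called 555 genes. A near-full limit of 90% left 2 genes and a high-dose limit of 25% left 23, and with no fold minimum they held 38 and 219. Leaving out 1 library gave 111 to 246 genes for the dose difference, 1748 to 2881 at 10 ng/ml, 41 to 281 at 1 ng/ml, 0 to 6 near-full and 52 to 88 high-dose genes. The 1 ng/ml count was 43 without FSH21 number 1, 50 without untreated number 1 and 41 without untreated number 6. Of the 36 named genes with a called dose difference, 20 kept it whichever library was left out, 12 without the block and 11 under both, and none of them changed sign. Among named genes with no called dose difference, the sign of some turned when 1 library was left out, for example between −0.21 and 0.04 for Ccnd2 and between −0.14 and 0.24 for Amh. The cause of these moves was not tested.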

Other observations

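Over all genes tested, 8.43% were called higher and 6.62% lower at 10 ng/ml, and 0.79% higher and 0.417% lower at 1 ng/ml. The dose difference was called in 1.22%. Glycolysis and hypoxia genes had a median log2 change of 0.68 at 10 ng/ml and 0.25 at 1 ng/ml, over 25 identifiers tested. Of these, 3 rose at 10 ng/ml, 0 were called at 1 ng/ml and 0 had a called dose difference. Their median dose difference was 0.39. The 2 untreated sets differed by a median of 0.77 in these genes, with numbers 2, 3 and 4 the higher, and this gap enters the dose difference. With FSH24 the medians were 0.21 at 10 ng/ml and 0.53 at 1 ng/ml. The part of the untreated sets in these medians was not tested. Among 15 genes of FOXO and insulin feedback, 3 rose and 5 fell at 10 ng/ml and 3 fell at 1 ng/ml, with 0 called dose differences. Arrdc3, an arrestin-domain gene, fell by 1.70 on the log2 scale at 10 ng/ml and fell by 1.03 at 1 ng/ml. Irs2, an insulin receptor substrate, fell by 0.94 at the higher and fell by 0.56 at the lower dose. Among 15 survival and apoptosis genes, 4 rose at 10 ng/ml and Bcl2, which blocks apoptosis, had a called dose difference of 0.64 (adjusted p = 0.041; 0.171 without the block). Of 20 basement membrane and collagen genes, 5 rose and 4 fell at 10 ng/ml, 0 were called at 1 ng/ml and Col18a1, collagen XVIII, had a called dose difference of 0.62 (adjusted p = 0.00757; 0.0577 without the block). Of 5 nuclear-retained RNAs, Neat1 had a called dose difference of 0.70 (adjusted p = 0.0011), which was not called without the block (adjusted p = 0.492).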
